A study of Mus musculus with 16 samples.

Results

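The mitochondrial respiratory chain genes described here are the 83 genes of the array whose names mark them as subunits of respiratory complexes I to IV, of ATP synthase, or as cytochrome c. The rule uses names alone, with no measured value: names that begin with Ndufa, Ndufb, Ndufc, Ndufs, Ndufv, Uqcr, Atp5, Cox4, Cox5, Cox6, Cox7 or Cox8, and Sdha, Sdhb, Sdhc, Sdhd and Cycs. They held 116 of the 41174 probes that are not controls, and 108 of these probes passed the filter on dim signals. The test covered 80 of the genes among 17085 in all, with 35 of complex I, 4 of complex II, 7 of complex III, 14 of complex IV, 15 of ATP synthase and Cycs. Ndufa4, now counted with complex IV, and Ndufaf1, an assembly factor of complex I, are kept apart. The names also took in 2 genes that code for no subunit, Cox4nb (current symbol Emc8) and Atp5s (current symbol Dmac2l). Every tested member was well above background on all 16 arrays in both channels. The other 3 genes are isoforms of complex IV. Cox4i2 was well above background on 3 arrays in Cy5 and 1 in Cy3, Cox8b on 1 in Cy5 and 0 in Cy3, and Cox8c on 1 in each.

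The cells were mast cells grown from mouse bone marrow for more than 4 weeks in 10% serum with interleukin 3 (5 ng/ml) and stem cell factor (40 ng/ml), with more than 90% of cells carrying the IgE receptor and Kit. TIM-3 is an immune-cell surface receptor, and a polyclonal goat antibody described as an agonist of it was set against unspecific goat IgG, each at 15 ug/ml. There were 4 groups of 4 two-colour arrays, activated or resting, each after 16 h or 2 h with the antibody. Activation meant loading with anti-DNP IgE (5 ug/ml, 1 h), after which DNP-HSA, the antigen (100 ng/ml), was added along with the antibody. Resting cells received neither IgE nor antigen. IgE and antigen cannot be told apart here, and an effect of antigen below means that of both together. Anti-TIM-3 samples always carried Cy5 and IgG samples Cy3, with no dye swap, and the effect of the antibody and the dye bias of a gene therefore cannot be told apart inside 1 group. A bias common to all arrays drops out of differences between groups. The labels do not say whether replicates were separate cultures or mice. A p-value here measures the spread among samples, and that spread may be technical. The ratios of 3 arrays (resting 16 h replicates 1 and 3, resting 2 h replicate 3) correlated with each other across genes at r of 0.52 to 0.79, and those of resting 2 h replicate 3 correlated with the other arrays of its group at 0.26 on average. This array also correlated at 0.56 and 0.52 with resting 16 h replicates 2 and 4, so these values alone do not set the 3 apart. Some counts that rest on these 3 resting arrays are also given without them. Those of resting cells at 2 h, of antigen at 2 h in either channel and of time in resting IgG-treated cells are not.

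The respiratory chain passes electrons from NADH (complex I) and succinate (complex II) through complex III and cytochrome c to oxygen at complex IV, and ATP synthase uses the proton gradient that this builds. Most subunits are coded in the nucleus, and several in complex IV and ATP synthase have alternative isoforms for particular tissues. Nuclear respiratory factor NRF-1, the Ets factor GABPA and YY1 are known to bind the promoters of many of these genes. In mast cells, crosslinking of the IgE receptor starts degranulation within minutes and cytokine transcription within hours, and both draw on ATP.

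Promoter windows of 300 bases, most of each before the start site, were available from RefSeq on GRCm38.p6 for 68 of the 83 genes, as 73 windows. The NRF-1 core GCGCATGC, or its reverse GCATGCGC, which overlaps it, lay in 11 windows, or 15.1%, against 2.71% of all 32851 windows. CCGGAAGT, a GABPA core, lay in 5 windows (6.85%, against 3.89% of all windows). AAGATGGCG, a YY1 core, lay in 7 windows (9.59%, against 1.4% of all windows), and 22 windows (30.1%, against 7.57%) held any of the motifs on either strand. The windows below are of the member with the highest antibody ratio (Cox6a1), of a pair that moved in opposite directions with antigen at 2 h (Cycs and Ndufs7), and of the gene with the largest fall over time (Cox7a1). They were chosen after their values were seen, and capitals mark motif matches.
Cox6a1, chr5:115348909-115349208, minus strand: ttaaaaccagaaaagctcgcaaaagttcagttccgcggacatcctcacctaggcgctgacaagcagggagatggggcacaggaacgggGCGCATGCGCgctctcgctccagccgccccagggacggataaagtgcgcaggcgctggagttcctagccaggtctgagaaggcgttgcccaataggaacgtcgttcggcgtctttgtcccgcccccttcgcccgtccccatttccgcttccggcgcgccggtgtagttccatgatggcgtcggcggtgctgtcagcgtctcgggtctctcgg
Cycs, chr6:50566520-50566819, minus strand: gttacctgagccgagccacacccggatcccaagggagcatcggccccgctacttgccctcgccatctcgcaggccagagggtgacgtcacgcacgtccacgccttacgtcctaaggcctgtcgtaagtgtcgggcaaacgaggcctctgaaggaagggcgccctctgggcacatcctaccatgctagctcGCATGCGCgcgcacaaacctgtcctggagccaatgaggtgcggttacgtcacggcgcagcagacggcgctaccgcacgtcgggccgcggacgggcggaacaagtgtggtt
Ndufs7, chr10:80249199-80249498, plus strand: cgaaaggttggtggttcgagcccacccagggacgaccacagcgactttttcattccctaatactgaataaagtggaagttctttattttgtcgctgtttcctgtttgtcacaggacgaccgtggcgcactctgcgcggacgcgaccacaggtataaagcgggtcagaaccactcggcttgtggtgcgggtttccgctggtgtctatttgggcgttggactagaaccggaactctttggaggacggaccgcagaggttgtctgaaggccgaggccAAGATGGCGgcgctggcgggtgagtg
Cox7a1, chr7:30183921-30184220, plus strand: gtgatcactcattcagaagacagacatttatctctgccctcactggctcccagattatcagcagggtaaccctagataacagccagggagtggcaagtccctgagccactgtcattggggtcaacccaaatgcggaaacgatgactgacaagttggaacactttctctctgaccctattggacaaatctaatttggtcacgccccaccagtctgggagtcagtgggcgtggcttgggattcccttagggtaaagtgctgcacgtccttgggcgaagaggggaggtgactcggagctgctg
The capitals in the Cox6a1 window are 2 overlapping NRF-1 matches, those of Cycs an NRF-1 match and those of Ndufs7 a YY1 match. The Cox7a1 window holds none of these letters. A match describes the letters and is not evidence that a factor binds there.

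In activated cells at 16 h, most respiratory chain genes had more signal with anti-TIM-3 than with IgG. Of 80 genes, 46 were called higher and 4 lower, with a median log2 ratio of 0.15, and 64 had a ratio above 0. Among all genes 16.9% were called higher and 13.2% lower (limma, adjusted p under 0.05). The genes called higher were spread over the large complexes: 21 of 35 in complex I, 3 of 7 in complex III, 8 of 14 in complex IV and 12 of 15 in ATP synthase. Complex II stood on the other side, with 0 of 4 higher and 1 lower. Of the genes called higher, 45 were higher on all 4 arrays (Cox8a was not), and all 4 lower genes were lower on all 4 arrays. The samples are bulk RNA, in which fewer cells of a type and less RNA per cell cannot be told apart.

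The other groups showed smaller shifts. In resting cells at 16 h, 26 genes were called higher and 3 lower (median log2 ratio 0.06), against 11.7% and 9.95% of all genes. In activated cells at 2 h there were 16 higher and 11 lower (median 0.03), against 17.1% and 16.3% of all genes, a share of higher calls near the background. In resting cells at 2 h, 24 genes were called higher and 5 lower (median 0.07), against 7.06% and 6.92%. A set of 10 genes was called higher in all 4 groups: Atp5b, Atp5e, Atp5g3, Cox6a1, Cox7b, Ndufa1, Ndufa11, Ndufa9, Ndufb8 and Uqcrh. Sdhd alone was called lower in all 4 groups, and 12 of the 80 genes were called in none. Over all genes 2.25% were called higher in all 4 groups, 1.67% lower in all 4 and 42.7% in none. The counts fell when some single arrays were left out. They were 13 higher and 1 lower without resting 16 h replicate 1, and 10 and 6 without activated 2 h replicate 2. Without resting 2 h replicate 1 they were 12 and 2. Without resting 16 h replicates 1 and 3 and resting 2 h replicate 3, the resting 16 h count was 11 higher and 0 lower. In activated cells at 16 h it was then 50 higher and 5 lower. Shares of all genes are not given for these counts, so a loss of calls common to all genes cannot be told apart from one of the members.

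**Figure D1:**
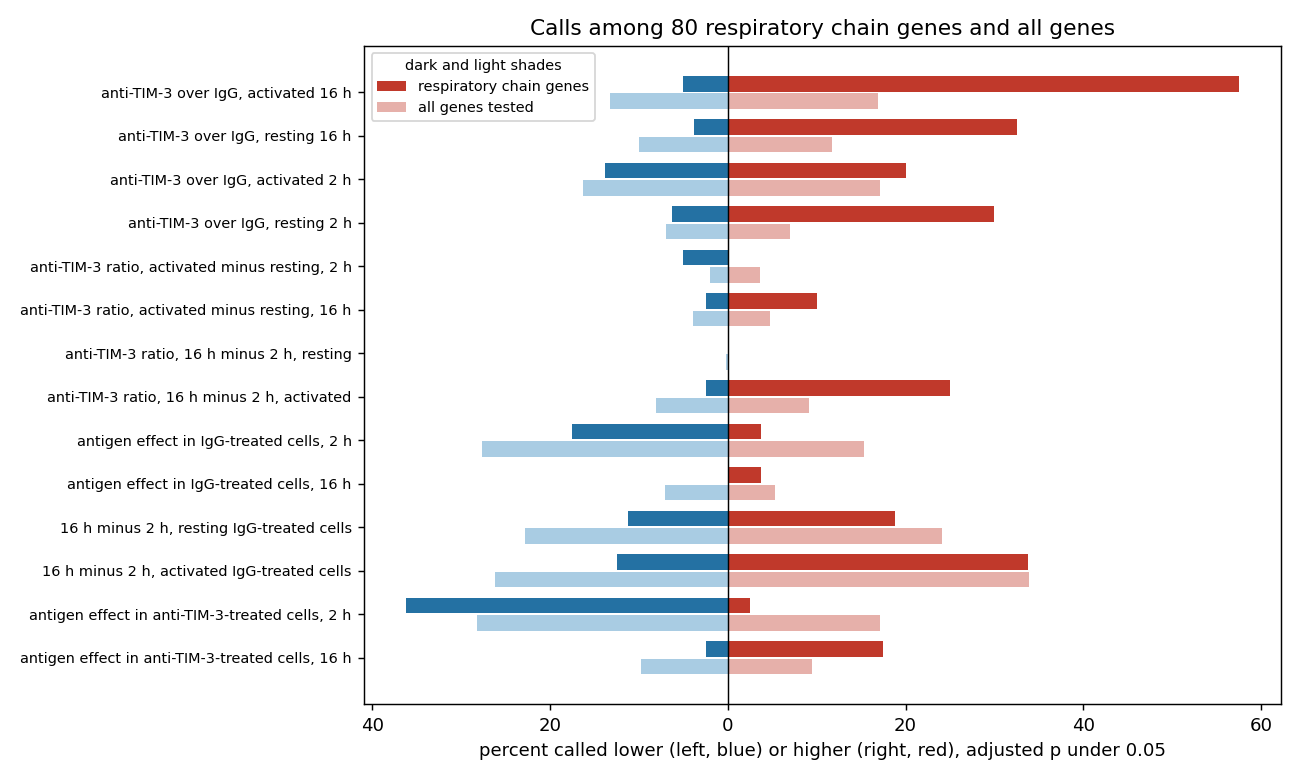
Percent of genes called lower (left, blue) or higher (right, red) in each of the 14 comparisons, for the 80 respiratory chain genes (dark) and all genes tested (light). The longest dark bar is that of activated cells at 16 h, where 57.5% of the respiratory chain genes were called higher with anti-TIM-3, against 16.9% of all genes.

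These counts depend on how the ratio is centred. With loess, which removes the trend of the ratio with brightness, the median ratio of all genes was near 0. With each array only centred on its median, the median of all genes rose to 0.39 in activated cells at 16 h, 0.30 in resting cells at 16 h, 0.22 in activated cells at 2 h and 0.21 in resting cells at 2 h. The respiratory chain genes called higher were then 80, 79, 78 and 75, with 0 lower in each group, beside 70.7%, 67.6%, 60.3% and 59.4% of all genes called higher. Relative to the median of all genes, the members' median was 0.51, 0.36, 0.36 and 0.40 in that order.

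**Figure D2:**
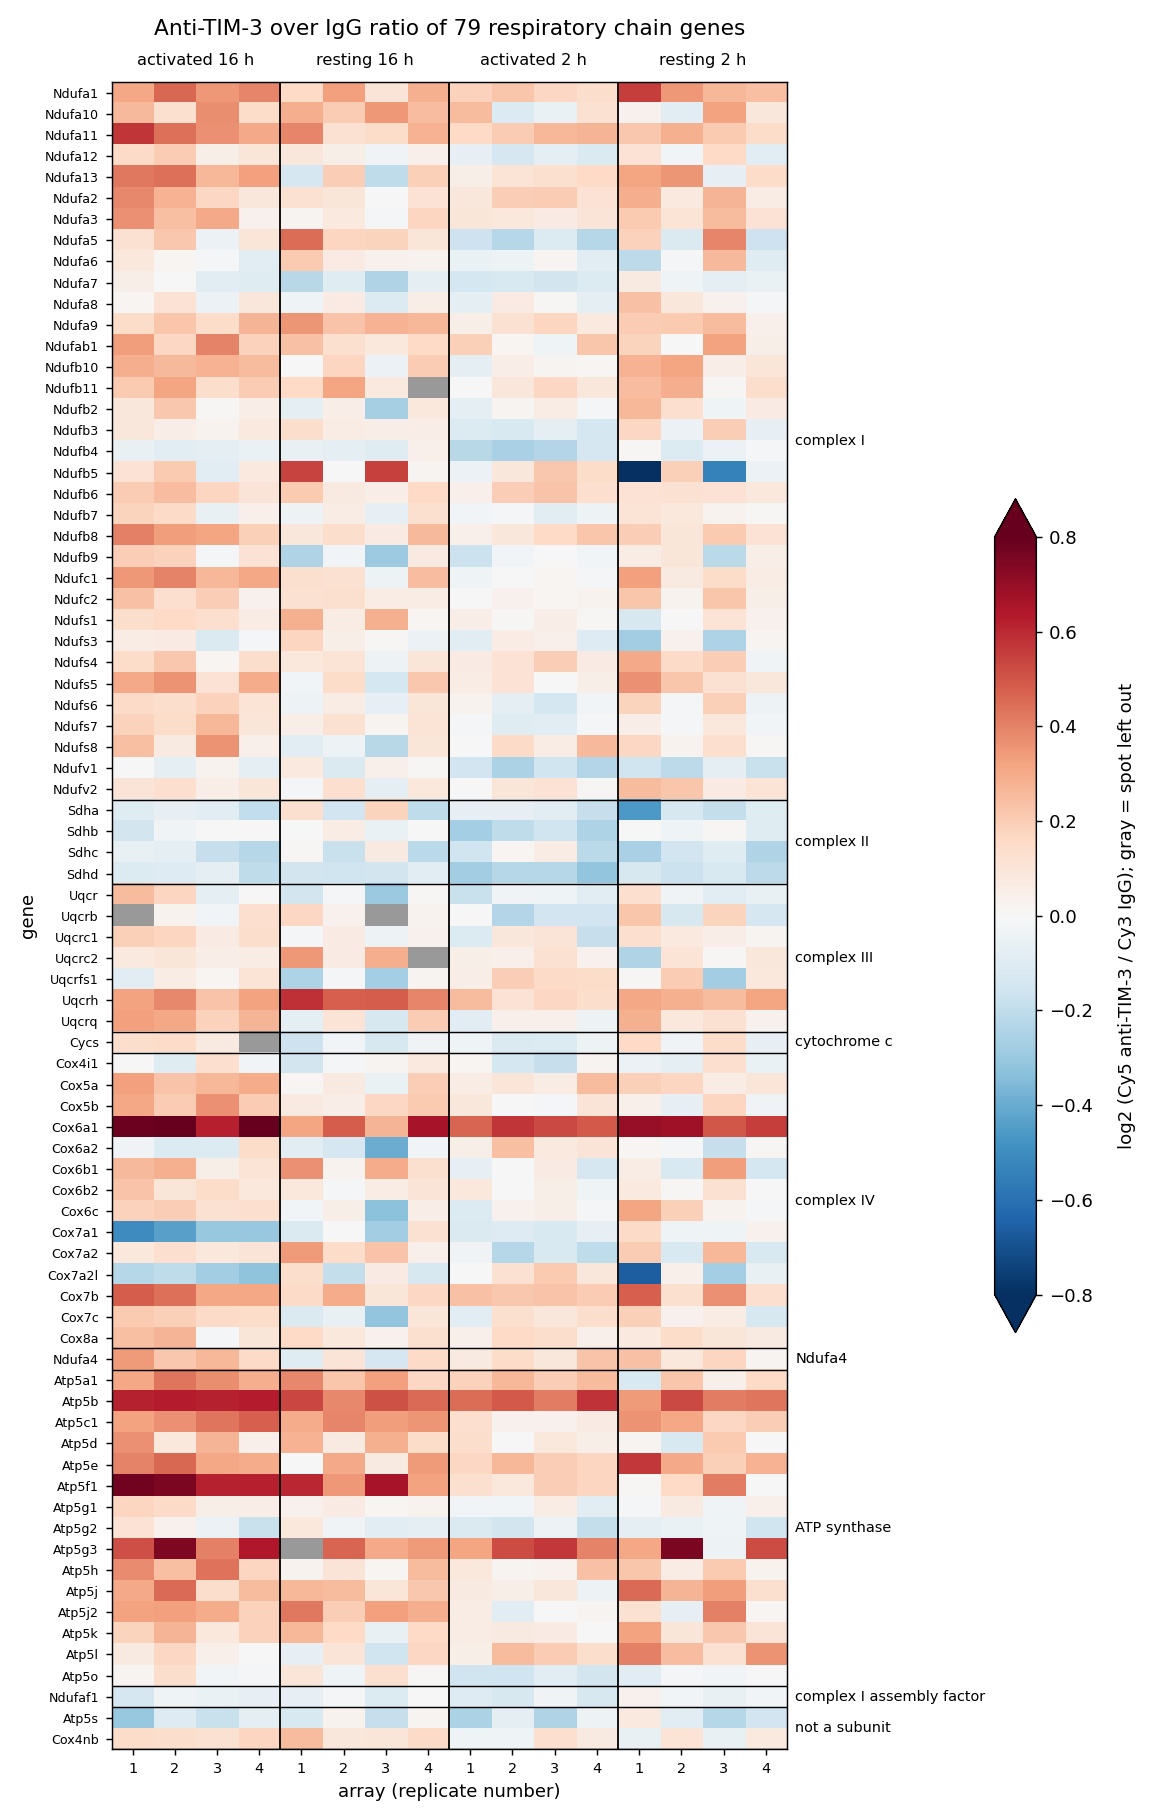
Log2 ratio of anti-TIM-3 (Cy5) over IgG (Cy3) for the genes reported here (down the page, by complex) on the 16 arrays (across, by group and replicate number), red higher and blue lower with anti-TIM-3, gray for spots left out as outliers. Colours saturate at 0.8, which Cox6a1 (0.82) passes in activated 16 h replicate 2 and Ndufb5 (-1.19) in resting 2 h replicate 1. Cox6a1, Atp5b and Atp5g3 are red in nearly every column, while Ndufb5 and Cox7a2l change colour between arrays of the same group.

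The median over the genes of a complex was taken on each array, and its mean and SD over the 4 arrays of a group describe the complexes. For ATP synthase the median log2 ratio was 0.28 ± 0.07 in activated and 0.20 ± 0.06 in resting cells at 16 h, and 0.07 ± 0.02 in activated and 0.17 ± 0.05 in resting cells at 2 h. The lowest activated 16 h array (0.18) lay above every activated 2 h array (0.05 to 0.08). Complex I had 0.15 ± 0.04, 0.07 ± 0.04, 0.01 ± 0.02 and 0.11 ± 0.06 in the same order of groups, and complex IV had 0.17 ± 0.05, 0.07 ± 0.03, 0.05 ± 0.02 and 0.06 ± 0.06. Complex III had 0.15 ± 0.07, -0.00 ± 0.07, 0.03 ± 0.06 and 0.08 ± 0.04. In complex II the medians were -0.11 ± 0.06, -0.07 ± 0.09, -0.18 ± 0.06 and -0.15 ± 0.04, below those of the other complexes in every group.

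**Figure D3:**
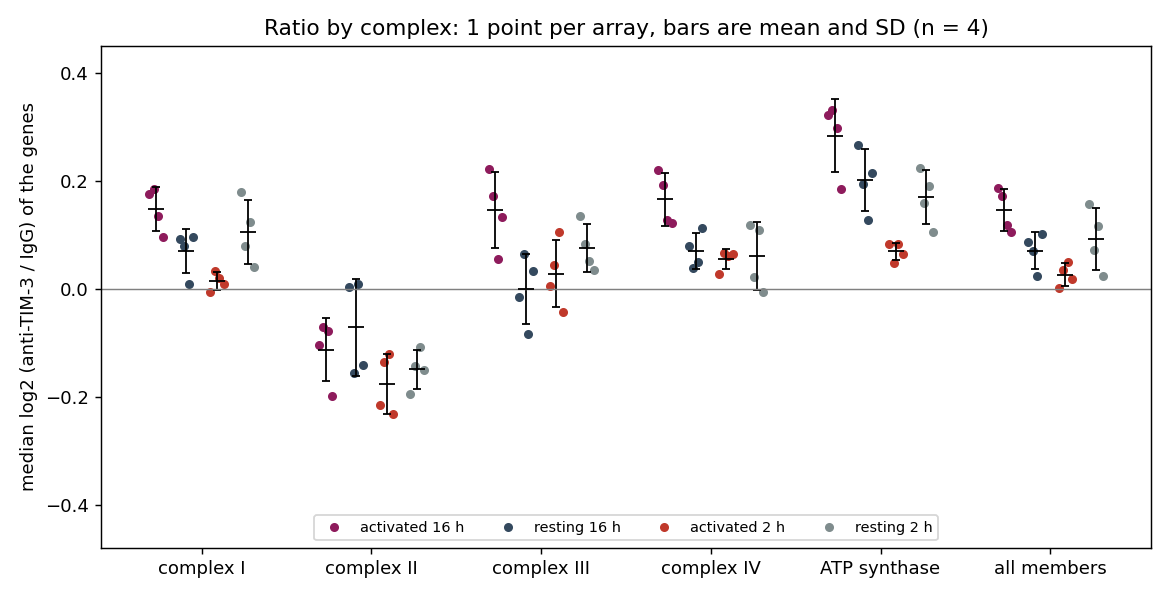
Median log2 ratio (anti-TIM-3 over IgG) over the genes of each complex, 1 point per array, with the mean and SD of the 4 arrays of a group as bars. Within each complex the order from the left is activated 16 h, resting 16 h, activated 2 h and resting 2 h. ATP synthase sits highest in activated cells at 16 h (0.18 to 0.33), and the activated 16 h points of all members (0.11 to 0.19) lie above all activated 2 h points (0.00 to 0.05).

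The channel levels show how each dye moved. Over all members, the median log2 level in Cy5 (anti-TIM-3) was 13.72 ± 0.03 in activated cells at 16 h, 13.66 ± 0.06 in resting cells at 16 h, 13.45 ± 0.03 in activated cells at 2 h and 13.57 ± 0.04 in resting cells at 2 h. In Cy3 (IgG) it was 13.54 ± 0.03, 13.59 ± 0.07, 13.45 ± 0.04 and 13.50 ± 0.12 in the same order. The Cy5 level of the activated cells was higher at 16 h than at 2 h by more than the spread between arrays. In Cy3 the rise was smaller, and again the arrays of the times did not overlap. The Cy3 medians spanned 13.51 to 13.58 at 16 h and 13.40 to 13.49 at 2 h. By complex, the Cy5 medians of activated cells at 16 h and 2 h were 15.00 ± 0.03 and 14.67 ± 0.03 for ATP synthase, 13.56 ± 0.06 and 13.30 ± 0.01 for complex I and 13.71 ± 0.05 and 13.50 ± 0.04 for complex IV. The Cy3 medians were 14.76 ± 0.05 and 14.59 ± 0.04 for ATP synthase, 13.40 ± 0.05 and 13.34 ± 0.04 for complex I and 13.46 ± 0.03 and 13.46 ± 0.04 for complex IV. Complex II was at 12.16 ± 0.06 and 12.01 ± 0.04 in Cy5 and 12.25 ± 0.06 and 12.15 ± 0.09 in Cy3. Complex III varied more between arrays at 16 h, with 13.85 ± 0.21 in activated and 13.78 ± 0.27 in resting cells in Cy5.

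In ATP synthase, Atp5f1, Atp5b and Atp5g3 had the highest ratios in activated cells at 16 h, a gene each of the peripheral stalk, the catalytic head and the membrane ring. Atp5b codes for the catalytic beta subunit. Its log2 ratio was 0.62, 0.63, 0.62 and 0.63 in activated cells at 16 h, 0.54, 0.38, 0.51 and 0.45 in resting cells at 16 h, 0.45, 0.49, 0.41 and 0.58 in activated cells at 2 h and 0.34, 0.53, 0.41 and 0.43 in resting cells at 2 h. All 16 values were above 0, and the activated 16 h mean was 0.62 ± 0.04 (SE, 1.54-fold, limma adjusted p = 2.59e-09). The 2 other kept probes of Atp5b did not show this: they had 0.04 and -0.06 in activated cells at 16 h and -0.19 and -0.22 in resting cells at 2 h. Atp5c1, the gamma subunit of the central stalk, had 0.32, 0.37, 0.43 and 0.48 in activated cells at 16 h, with a mean of 0.40 ± 0.04 (adjusted p = 4.88e-07). Its values were 0.29, 0.39, 0.33 and 0.35 in resting cells at 16 h, 0.13, 0.04, 0.03 and 0.06 in activated cells at 2 h and 0.36, 0.31, 0.16 and 0.20 in resting cells at 2 h. The activated 2 h values lay below those of all other groups. Atp5a1 (alpha subunit) rose by 0.35 in activated cells at 16 h and its other probe had 0.03, while Atp5e (epsilon subunit) rose by 0.37.

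Atp5f1, subunit b of the peripheral stalk, showed the largest difference between the times. Its log2 ratio was 0.77, 0.75, 0.62 and 0.62 in activated cells at 16 h, 0.60, 0.35, 0.66 and 0.32 in resting cells at 16 h, 0.13, 0.09, 0.20 and 0.17 in activated cells at 2 h and 0.01, 0.16, 0.41 and -0.00 in resting cells at 2 h. In activated cells the times did not overlap. The activated 16 h mean was 0.69 ± 0.06 (1.61-fold, adjusted p = 4.92e-07). Here too the probes disagreed, with 0.14 and 0.46 for the other 2 probes in activated cells at 16 h. The c-ring subunit is coded by 3 genes with the same mature protein, and they differed: Atp5g3 had 0.58 ± 0.09 in activated cells at 16 h (adjusted p = 0.000156), Atp5g1 0.11 ± 0.03 (adjusted p = 0.0177) and Atp5g2 -0.02 ± 0.04 (adjusted p = 0.784). Atp5g3 was 0.51, 0.75, 0.40 and 0.64 in activated cells at 16 h and varied most in resting cells at 2 h (0.31, 0.75, -0.04 and 0.52). The call of Atp5g1 was lost without activated 16 h replicate 1 or 2 (adjusted p up to 0.116).

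Complex I had the most genes called higher in activated cells at 16 h. Ndufa11, an accessory subunit of the membrane arm, had 0.57, 0.44, 0.37 and 0.30 there, 0.39, 0.12, 0.15 and 0.28 in resting cells at 16 h, 0.16, 0.20, 0.27 and 0.27 in activated cells at 2 h and 0.21, 0.28, 0.21 and 0.15 in resting cells at 2 h. Every value was above 0, and the activated 16 h mean of 0.42 ± 0.05 (adjusted p = 4.09e-06) was the highest of the complex. Ndufa1, an accessory subunit that complex I assembly needs, had 0.38 ± 0.05 (adjusted p = 1.48e-05), and its highest single value was 0.55 in resting 2 h replicate 1. Ndufa13, also known as GRIM-19, had 0.42, 0.44, 0.27 and 0.33 in activated cells at 16 h but -0.13, 0.20, -0.20 and 0.19 in resting cells at 16 h. The resting 16 h arrays thus split by replicate, with replicates 1 and 3 low. The other probes of Ndufa1 and Ndufa11 had ratios of the same sign in activated cells at 16 h.

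Among the core subunits of complex I, several of which hold the flavin or iron-sulfur clusters, Ndufs8 (0.18), Ndufs7 (0.17) and Ndufs1 (0.12) were called higher in activated cells at 16 h. Ndufv2 (0.10), Ndufs3 (-0.00) and Ndufv1 (-0.03) were not called. Ndufv1, the flavin subunit, was called lower by 0.20 in activated cells at 2 h and by 0.15 in resting cells at 2 h.

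Complex II, succinate dehydrogenase, takes part in both the citrate cycle and the chain. Sdhd, a membrane anchor, had -0.11, -0.10, -0.07 and -0.20 in activated cells at 16 h, -0.15, -0.16, -0.15 and -0.08 in resting cells at 16 h, -0.28, -0.23, -0.23 and -0.32 in activated cells at 2 h and -0.13, -0.17, -0.12 and -0.21 in resting cells at 2 h. All 16 values were below 0, and the means were -0.12 ± 0.03 (adjusted p = 0.00548), -0.13, -0.26 (adjusted p = 4.89e-06) and -0.16 in that order. Sdhb, the iron-sulfur subunit, was called lower only in activated cells at 2 h (-0.22, adjusted p = 8.55e-05), where its values of -0.27, -0.21, -0.16 and -0.25 lay below those of all other groups (-0.15 to 0.06). Sdha, the flavoprotein, had -0.11 ± 0.06 in activated cells at 16 h, and its call in resting cells at 2 h (-0.22, adjusted p = 0.0247) was lost without replicate 1 or 3 (adjusted p up to 0.201). Its other probe had 0.22 in activated cells at 16 h. Sdhc, the other anchor, had -0.14 ± 0.05 in activated cells at 16 h (adjusted p = 0.0644), and its call in resting cells at 2 h (-0.19) was lost without replicate 1, 2 or 4. With median centring alone all of these calls turned to ratios above 0.

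Uqcrh, the hinge protein of complex III, had a lower mean ratio in activated than in resting cells at both times. Its ratios at 16 h were 0.32, 0.39, 0.23 and 0.32 in activated and 0.58, 0.48, 0.49 and 0.39 in resting cells. At 2 h they were 0.26, 0.12, 0.17 and 0.14 in activated and 0.31, 0.28, 0.25 and 0.31 in resting cells, so the mean was highest in resting cells at 16 h. It was called higher in all groups, though with Agilent's processed signals it had -0.03 in activated cells at 2 h, and stood at 0.31 ± 0.04 (adjusted p = 4.49e-06) in activated cells at 16 h. Uqcrq, a small subunit, had 0.33, 0.31, 0.18 and 0.27 in activated cells at 16 h and -0.09, 0.04, 0.04 and -0.04 in activated cells at 2 h. The Rieske protein gene Uqcrfs1 had the lowest ratio of the complex in activated cells at 16 h (0.02, adjusted p = 0.814).

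Complex IV held both the highest and the lowest ratio of all members in activated cells at 16 h, and both belong to isoforms. Cox6a1, the isoform of subunit VIa found in most tissues, had 0.79, 0.82, 0.62 and 0.80 there, 0.32, 0.48, 0.27 and 0.66 in resting cells at 16 h, 0.47, 0.57, 0.53 and 0.49 in activated cells at 2 h and 0.70, 0.68, 0.50 and 0.55 in resting cells at 2 h. The activated 16 h mean was 0.76 ± 0.05 (1.69-fold, adjusted p = 2.66e-08). Cox6a2, the muscle isoform, had -0.03 ± 0.06 there (adjusted p = 0.765), and its call in resting cells at 16 h (-0.16, adjusted p = 0.0487) was lost without replicate 1, 2 or 3. Cox7a1, the muscle isoform of subunit VIIa, had -0.50, -0.44, -0.31 and -0.30 in activated cells at 16 h, -0.12, 0.00, -0.28 and 0.12 in resting cells at 16 h, -0.11, -0.11, -0.12 and -0.06 in activated cells at 2 h and 0.15, -0.03, -0.04 and 0.04 in resting cells at 2 h. Its activated 16 h values lay below all others, with a mean of -0.39 ± 0.05 (1.31-fold lower, adjusted p = 3.04e-05). With median centring alone its ratio was 0.13, where all genes had a median of 0.39. Cox7a2, the isoform of most other tissues, had 0.10 ± 0.06 (adjusted p = 0.223).

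Other isoform pairs moved little. Cox4i1, the common isoform of subunit IV, had 0.00 ± 0.05 in activated cells at 16 h (adjusted p = 0.956), Cox6b1 0.18 ± 0.07 (adjusted p = 0.0654) and its testis isoform Cox6b2 0.14 ± 0.03 (adjusted p = 0.00487). Cox8a was called higher (0.15 ± 0.04, adjusted p = 0.0116), but not without activated 16 h replicate 1 or 2 (adjusted p up to 0.0931), and it had -0.01 with Agilent's processed signals. Cox7a2l, which helps join complexes III and IV, had -0.23, -0.21, -0.28 and -0.32 in activated cells at 16 h and -0.00, 0.12, 0.21 and 0.09 in activated cells at 2 h. Its resting 2 h values were -0.66, 0.04, -0.27 and -0.06, with replicates 1 and 3 low. Cox7b, a small subunit, was called higher in all groups, with 0.38 ± 0.05 in activated cells at 16 h (adjusted p = 2.76e-05). Ndufa4 had 0.24 ± 0.05 there (adjusted p = 0.00106). Cycs, the mobile electron carrier that also triggers apoptosis when released, had 0.14, 0.15 and 0.07 in activated cells at 16 h (n = 3, 1 outlier spot left out, adjusted p = 0.0618).

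The difference between the times was tested on the ratios themselves. In activated cells the anti-TIM-3 ratio of 71 of 80 genes was larger at 16 h than at 2 h, with a median difference of 0.14. Of the 80 genes, 20 were called higher and 2 lower, against 9.14% and 8.05% of all genes. The genes called higher were 9 of complex I, 5 of ATP synthase, 2 of complex II, 2 of complex IV, 1 of complex III and Cycs. In 21 of the 22 called genes the arrays of the times did not overlap. Atp5f1 led with a difference of 0.54 ± 0.09 (adjusted p = 0.00035), from means of 0.69 ± 0.08 at 16 h and 0.15 ± 0.05 at 2 h (SD, n = 4 each); its other probes differed by 0.19 and -0.04. Ndufc1, an accessory subunit, differed by 0.34 ± 0.06 (adjusted p = 0.00124), with 0.35, 0.40, 0.27 and 0.31 at 16 h and -0.04, -0.00, 0.02 and -0.02 at 2 h. Atp5c1 differed by 0.33 ± 0.05 (adjusted p = 0.000208) and Ndufb10 by 0.26 ± 0.07 (adjusted p = 0.0096), with 0.29, 0.26, 0.28 and 0.25 at 16 h and -0.07, 0.05, 0.02 and 0.02 at 2 h. Uqcrq differed by 0.29 (adjusted p = 0.00973). These 5 genes kept the call without any single array.

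Other calls of this comparison were lost when single arrays were left out. The fit took 1 spread per gene over all 4 groups, and that of Cox7a2l was widest in resting cells at 2 h (SD 0.31). Cox6a1 (0.24) and Cox7a2l (-0.36) lost the call without any of 7 of the 8 arrays (adjusted p up to 0.0896 and 0.097), and Cycs (0.20) without any of 6. Cox7a1 differed by -0.28 ± 0.07 (adjusted p = 0.0123) and lost the call without activated 16 h replicate 1 (-0.25, adjusted p = 0.0502). Atp5j2 (0.29) lost it without activated 16 h replicate 1 or 2 or activated 2 h replicate 2, and Atp5j (0.24) without these or activated 2 h replicate 4. The count over all members was 10 higher and 0 lower without activated 16 h replicate 1, 10 and 1 without activated 16 h replicate 2, and 11 and 1 without activated 2 h replicate 2. With median centring alone it was 55 and 1, beside 24.7% and 6.54% of all genes. Slides hold 4 arrays each and mix groups, but not evenly. Activated 2 h replicates 1 and 2 lay on slide 2, and replicates 3 and 4 on slide 3. Activated 16 h replicates 1 and 2 lay on slide 4, replicate 3 on slide 3 and replicate 4 on slide 1. Time in activated cells is thus partly confounded with slide. Only slide 3 held both times of activated cells, with 1 array at 16 h and 2 at 2 h. On that slide, whose arrays are part of the whole comparison, the differences were 0.43 for Atp5f1, 0.38 for Atp5c1, 0.27 for Ndufc1 and -0.21 for Cox7a1. In resting cells limma called 0 genes higher and 0 lower between 16 h and 2 h, against 0.0878% and 0.199% of all genes. There, 18 members had an unadjusted p under 0.05, and the smallest adjusted p was 0.0861. The count was 0 in all other settings except without resting 2 h replicate 3 (6 higher, 1 lower), resting 16 h replicate 2 (2 higher) or resting 16 h replicate 4 (3 higher, 1 lower).

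Few respiratory chain genes were called for a difference of the ratio between activated and resting cells. At 16 h, 8 were called higher and 2 lower in activated than in resting cells, against 4.71% and 3.87% of all genes, with a median difference of 0.07. Of the 80 members, 53 had a difference above 0, and 30 had an unadjusted p under 0.05 (limma). Cox7a1 was lower by 0.32 ± 0.07 (adjusted p = 0.0125), with means of -0.39 ± 0.10 in activated and -0.07 ± 0.17 in resting cells (SD, n = 4 each), and without activated 16 h replicate 1 the difference was -0.28 (adjusted p = 0.0528). Cox6a1 was higher by 0.33 ± 0.08 (adjusted p = 0.0124), though its groups overlapped. Ndufa13 (0.35), Cox7c (0.27), Ndufa4 (0.24), Cox5a (0.22), Ndufc1 (0.21), Cycs (0.21) and Uqcrh (-0.17) were called with adjusted p of 0.0252 to 0.0482 and each lost the call without 4 or more of the 8 arrays. Uqcrq (0.25) was the other gene called. Between 1 and 16 genes were called when single arrays were left out. The count was 1 higher and 0 lower without activated 16 h replicate 1, 2 and 2 without activated replicate 2, 4 and 1 without activated replicate 3 or 4, 2 and 1 without resting 16 h replicate 1, 1 and 1 without resting replicate 3, and 14 and 2 without resting replicate 4. It was 1 and 1 without the 3 resting arrays named above, and 31 and 0 with median centring alone. Shares of all genes in these settings are not given. A shift common to all genes therefore cannot be told apart from one of the members in these counts.

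At 2 h the ratio of 0 genes was called higher and that of 4 lower in activated than in resting cells, against 3.59% and 1.99% of all genes. They were Atp5j, subunit F6 of the stalk (-0.25, adjusted p = 0.0497), Atp5c1 (-0.19, adjusted p = 0.0369), Sdhb (-0.19, adjusted p = 0.0232) and Ndufb4, an accessory subunit (-0.17, adjusted p = 0.0319). Their groups did not overlap: Ndufb4 had -0.22, -0.26, -0.23 and -0.13 in activated cells and 0.01, -0.11, -0.05 and -0.01 in resting cells. Each of the 4 lost its call without 5 or more of the 8 arrays. The count was 0 without resting 2 h replicate 1 or activated 2 h replicate 2, and 1 lower without resting 2 h replicate 3 or activated 2 h replicate 1, 3 or 4. Among members 19 had an unadjusted p under 0.05, and settings other than single arrays gave 0 to 4 calls.

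The IgG-treated cells show how levels differed with activation (IgE and antigen together) and with time, without anti-TIM-3, in the Cy3 channel compared across arrays. At 2 h, 3 respiratory chain genes were higher and 14 lower in activated than in resting cells, smaller shares than the 15.3% and 27.6% of all genes. The lower genes were 8 of 35 in complex I (22.9%, a smaller share than that of all genes), 3 of 4 in complex II and Cox7a2l of complex IV, with Atp5s and Cox4nb, and 0 of 7 in complex III and 0 of 15 in ATP synthase. Ndufs7, which carries an iron-sulfur cluster next to the ubiquinone site, had log2 levels of 13.13, 13.16, 13.22 and 13.24 in activated cells and 13.58, 13.53, 13.51 and 13.64 in resting cells. The groups were well separated, with a difference of -0.38 ± 0.05 (1.30-fold lower, adjusted p = 8.32e-06). Sdha had 11.10, 11.05, 11.16 and 11.09 in activated and 11.64, 11.33, 11.62 and 11.28 in resting cells, a difference of -0.37 ± 0.07 (adjusted p = 0.000386). Sdhc (-0.23) and Sdhd (-0.18) were also called lower, so the flavoprotein and both anchors fell.

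Some of these falls came with resting arrays that did not match each other. Ndufb5, an accessory subunit, had 9.56, 9.46, 9.34 and 9.45 in activated cells and 10.82, 9.61, 11.00 and 9.60 in resting cells at 2 h. Resting replicates 1 and 3 were high and replicates 2 and 4 were close to the activated arrays. Its difference of -0.80 ± 0.25 (adjusted p = 0.0142) lost the call without resting 2 h replicate 1 (-0.62, adjusted p = 0.054) or replicate 3 (-0.55, adjusted p = 0.0512). Cox7a2l fell by 0.48 (adjusted p = 0.000723) with the same resting arrays high. Resting 2 h replicates 1 and 3 lay on slides 2 and 3, which held all activated 2 h arrays, and replicates 2 and 4 on slides 4 and 1. On slides 2 and 3 the differences were -1.31 and -1.60 for Ndufb5 and -0.68 and -0.73 for Cox7a2l. For Sdha they were -0.56 and -0.50. These arrays are part of the whole comparison, and the part of the slide was not tested. In the other direction, Cycs had 14.49, 14.48, 14.42 and 14.43 in activated and 14.16, 14.29, 14.02 and 14.28 in resting cells. Every activated array was above every resting array, and Cycs rose by 0.27 ± 0.06 (1.21-fold, adjusted p = 0.0012).

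The largest antigen effect belonged to Atp5s, which is a member by name only. Its Cy3 levels were 8.42, 8.41, 8.41 and 8.40 in activated cells at 2 h and 9.45, 9.79, 9.57 and 9.67 in resting cells at 2 h, a difference of -1.21 ± 0.07 (2.31-fold lower, adjusted p = 1.79e-09). By 16 h it was 10.35, 10.59, 10.61 and 10.41 in activated and 10.44, 10.63, 10.63 and 10.54 in resting cells, and the groups overlapped. Its other probe also fell with antigen at 2 h (-0.53, adjusted p = 2.71e-05). At 16 h antigen left 3 members higher and 0 lower in IgG-treated cells, against 5.3% and 7.02% of all genes. Cox7a1 had 10.70, 10.67, 10.60 and 10.50 in activated and 10.18, 10.24, 10.24 and 10.27 in resting cells, a difference of 0.38 ± 0.06 (1.30-fold, adjusted p = 0.000679). The groups did not overlap. Atp5l (0.18), subunit g of ATP synthase, and Atp5g1 (0.16) were the other calls. Atp5l lost it without any of 5 arrays and Atp5g1 without activated 16 h replicate 3 (adjusted p = 0.0534). Without the 3 resting arrays named above 1 gene was called.

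In anti-TIM-3-treated cells, compared across arrays in Cy5, the effect of antigen at 2 h also ran mostly downwards. There, 2 were called higher and 29 lower, against 17.1% and 28.2% of all genes, with a median difference of -0.12 where all genes had -0.05. The lower genes were 16 of 35 in complex I, 3 of 4 in complex II, 4 of 7 in complex III, 1 of 14 in complex IV and 3 of 15 in ATP synthase. Ndufs7 fell by 0.46 ± 0.05 (adjusted p = 1.06e-06), with 13.11, 13.07, 13.13 and 13.22 in activated and 13.63, 13.52, 13.60 and 13.62 in resting cells. Sdhd fell by 0.29 (adjusted p = 0.000111), with 13.30, 13.34, 13.36 and 13.30 in activated and 13.65, 13.65, 13.62 and 13.53 in resting cells. Both genes had groups far apart beside their spread. Cycs rose by 0.14 (adjusted p = 0.0255), a call lost without any of 4 arrays. The count of 29 lower calls is not shown to differ from the 14 in IgG-treated cells, since the antigen effects were compared only through the ratios, where 4 genes were called. At 16 h 14 genes were higher and 2 lower in activated cells, against 9.47% and 9.79% of all genes. Ndufs8, a core iron-sulfur subunit, rose by 0.34 ± 0.08 (adjusted p = 0.00801), with 10.66, 10.70, 10.91 and 10.65 in activated and 10.31, 10.36, 10.33 and 10.56 in resting cells. Ndufa11 rose by 0.31 (adjusted p = 0.00169) and Ndufa13 by 0.27 (adjusted p = 0.00294). The count was 9 and 1 without activated 16 h replicate 1, 8 and 1 without activated replicate 3 or resting 16 h replicate 1, 7 and 1 without resting replicate 3, and 6 and 0 without the 3 resting arrays named above.

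**Figure D4:**
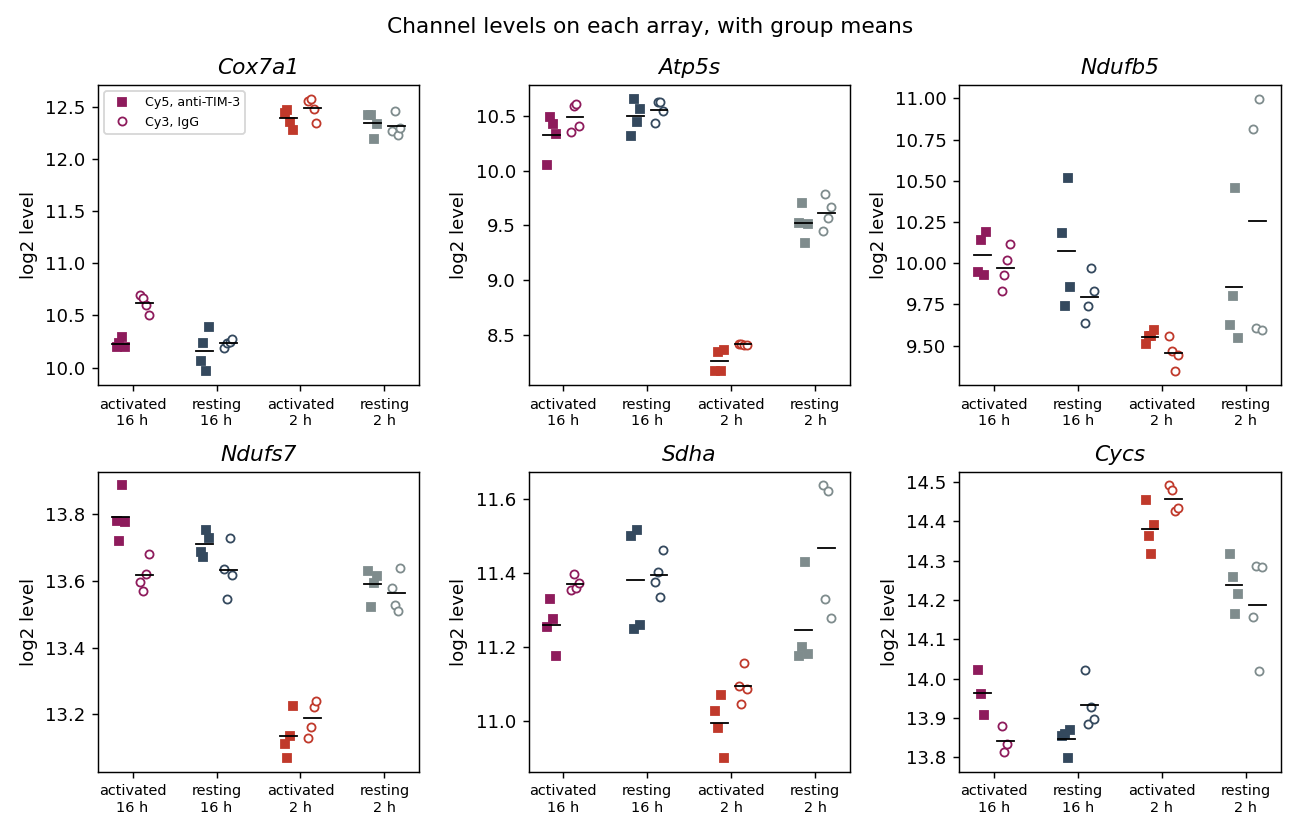
Log2 level on each array for 6 genes, with Cy5 (anti-TIM-3, filled squares) left of Cy3 (IgG, open circles) in each group and black lines at the group means. Cox7a1 lies near 12.3 to 12.5 at 2 h and 10.2 to 10.6 at 16 h, Atp5s is lowest in activated cells at 2 h (Cy3 mean 8.41), and Ndufb5 and Sdha have resting arrays that split in pairs at 2 h in Cy3.

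In IgG-treated cells more members were called between the times than between activated and resting cells. Between 16 h and 2 h, 15 were higher and 9 lower in resting IgG-treated cells, against 24.1% and 22.8% of all genes. In activated IgG-treated cells 27 were higher and 10 lower, against 33.9% and 26.2%, so the members' shares were near or below the background. Cox7a1 stood far from the rest. Its Cy3 level was 10.18, 10.24, 10.24 and 10.27 at 16 h and 12.26, 12.46, 12.23 and 12.30 at 2 h in resting cells, a difference of -2.08 ± 0.06 (4.23-fold lower, adjusted p = 7.76e-13). In activated cells it was 10.70, 10.67, 10.60 and 10.50 at 16 h and 12.56, 12.58, 12.48 and 12.35 at 2 h, a difference of -1.87 ± 0.06 (3.67-fold lower, adjusted p = 3.84e-13). The Cy5 levels of anti-TIM-3-treated cells were also lower at the later time, with 10.19 to 10.29 in activated cells at 16 h and 12.28 to 12.47 at 2 h. Cycs fell by 0.62 ± 0.06 in activated cells (adjusted p = 3.88e-07), with 13.88, 13.81 and 13.83 at 16 h (n = 3) and 14.49, 14.48, 14.42 and 14.43 at 2 h, and by 0.25 in resting cells (adjusted p = 0.00191), where the times overlapped.

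Members of complex I rose more often than they fell over time, with 14 higher and 1 lower of 35 in activated and 9 higher and 2 lower in resting IgG-treated cells. The higher shares, 40% in activated and 25.7% in resting cells, were near those of all genes (33.9% and 24.1%). Ndufa7, an accessory subunit, rose by 0.45 in activated and 0.46 in resting cells (adjusted p = 6.75e-07 and 1.1e-06), with all 8 arrays at 16 h (14.13 to 14.24) above all 8 at 2 h (13.57 to 13.81). Ndufs7 rose by 0.43 ± 0.05 in activated cells (adjusted p = 8.48e-07) and Cox7a2l by 0.75 (adjusted p = 3.87e-06). Both had been lower with antigen at 2 h. Ndufa11 fell over time, by 0.33 in activated and 0.45 in resting cells, and so did Cox6b1, by 0.36 and 0.37. Atp5s rose by 2.08 ± 0.07 in activated cells (4.23-fold, adjusted p = 7.59e-13) and by 0.94 in resting cells. Comparisons that share arrays, such as antigen at 2 h and time in activated cells, are not independent of each other.

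Genes of the same pathway outside the name rule were described from lists drawn up with earlier results of these data known. Their counts in activated cells at 16 h stand beside 16.9% of all genes higher and 13.2% lower. Of the subunits that the array lists under other names, 3 were tested and all 3 were called higher in activated cells at 16 h: Atpif1, the inhibitor of ATP synthase (0.35), Cyc1, cytochrome c1 of complex III (0.24), and Atp5md, a small subunit (0.18). Ndufv3 (0.29), Atp5mpl (0.25) and Uqcr10 (0.18), found through their current symbols, were also called higher there. Of 20 assembly factors 0 were higher and 4 (20%) lower, among them Surf1 (-0.16), which complex IV assembly needs. Of 16 genes of pyruvate dehydrogenase and the citrate cycle, 7 were higher and 1 lower, led by Mdh2 (0.66), malate dehydrogenase. Of 16 regulators of mitochondrial biogenesis, 1 was higher, Tfb1m (0.85, adjusted p = 1.68e-09), which methylates the mitochondrial ribosomal RNA, and 3 were lower, among them Gabpa (-0.15). Of 10 carriers and defence genes, 2 were higher and 1 lower, with Slc25a5, the ADP/ATP carrier, at 0.79. Mitochondrial ribosomal proteins had 24 of 78 higher and 4 lower, and cytosolic ribosomal proteins 58 of 82 higher and 1 lower.

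Between 16 h and 2 h in activated cells, the ratio of cytosolic ribosomal proteins was called higher in 3 and lower in 1 of 82, that of mitochondrial ribosomal proteins higher in 17 and lower in 0 of 78, and Tfb1m differed by 0.55 (adjusted p = 1.95e-05). Of all genes, 9.14% were higher and 8.05% lower there. With antigen at 2 h in IgG-treated cells, assembly factors had 1 of 20 higher and 10 lower, with Ecsit at -1.10 and Ttc19 at 0.67. Citrate cycle genes had 1 of 16 higher and 10 lower, with Suclg2 at -0.47 and Idh3a at -0.43. Biogenesis regulators had 3 of 16 higher and 8 lower, with the mitochondrial DNA polymerase subunits Polg (-0.70) and Polg2 (-0.78) lower and the coactivator Ppargc1b (0.29) higher. Mitochondrial ribosomal proteins had 4 higher and 26 lower of 78. Of all genes, 15.3% were higher and 27.6% lower in that comparison.

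Respiratory chain probes are bright, and brightness moved with the ratio. Of the 80 members, 54 lay among the brightest 10% of genes, with a median log2 signal of 13.6 where all genes had 8.97. Among the 1102 other genes brighter than the median member, 35.6% were called higher in activated cells at 16 h, against 67.5% of the 40 members that bright. At 16 h in resting cells these shares were 33.5% of the other bright genes and 40% of the bright members, in activated cells at 2 h 31.8% and 32.5%, and in resting cells at 2 h 29% and 42.5%. For the difference between 16 h and 2 h in activated cells they were 13.9% and 35%. Across the members, which share arrays, brightness and the log2 ratio had a Pearson r of 0.51 in activated cells at 16 h. Over all genes r was 0.02, a value that loess sets near 0 by removing the trend with brightness on each array. The part of brightness in the results was not tested.

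**Figure D5:**
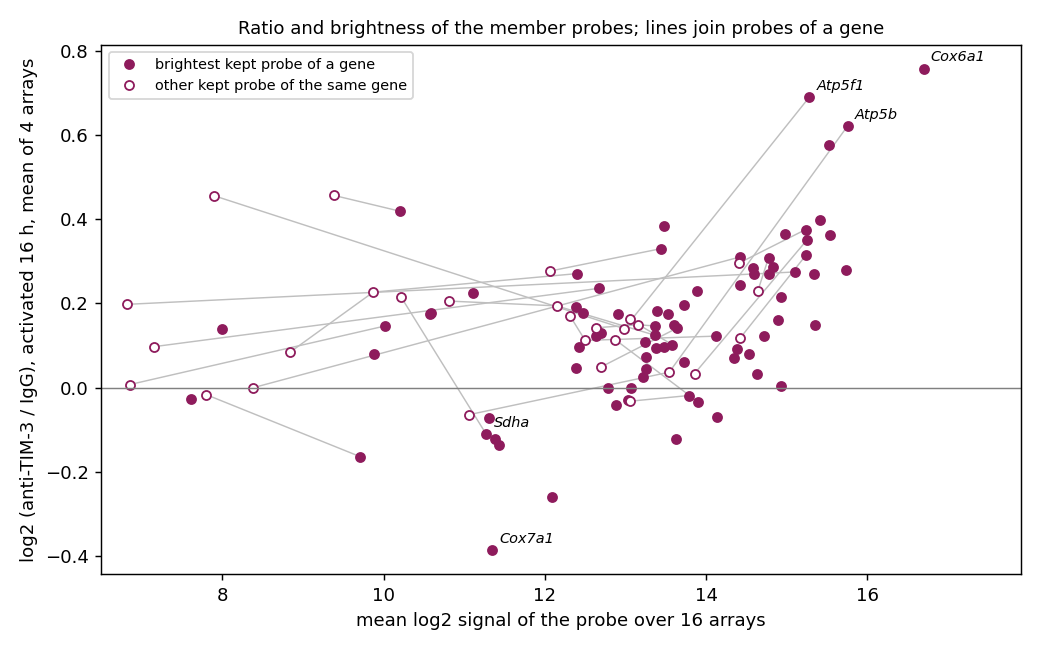
Log2 ratio in activated cells at 16 h (mean of 4 arrays) against the mean log2 signal of each probe over the 16 arrays, with filled points for the brightest kept probe of a gene, open points for its other kept probes, and lines joining probes of a gene. The ratios above 0.5 all belong to filled points, and the lines from Atp5b and Atp5f1 end at dimmer probes with lower ratios (-0.06 to 0.46).

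Of the members, 22 had other kept probes, 28 in all. In activated cells at 16 h, 24 of these 28 had a ratio of the same sign as the brightest probe, 20 in resting cells at 16 h, 16 in activated cells at 2 h and 20 in resting cells at 2 h. For the difference between 16 h and 2 h in activated cells it was 22 of 28. The median log2 ratio in activated cells at 16 h was 0.25 over the brightest probes of these 22 genes and 0.14 over their other probes, and in resting cells at 16 h 0.11 and 0.04. Ndufa3, an accessory subunit of complex I, rose over time in activated IgG-treated cells by its brightest probe (0.34), and its other probe had -0.45. With the dimmest kept probe of each gene in place of the brightest, 39 genes were called higher and 3 lower in activated cells at 16 h.

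All 10 mast cell markers, among them Kit, Fcer1a and Cpa3, were well above background on all 16 arrays. So were all 4 macrophage and dendritic cell markers (Adgre1, Csf1r, Cd68 and Itgax), 1 of 3 neutrophil and progenitor markers (Mpo; Elane and Camp on 0 arrays), 3 of 4 lymphocyte, 2 of 3 erythroid and 1 of 3 fibroblast markers (Dcn on 0). The log2 of the summed Cy3 signals was taken for each list, so the brightest markers weigh most. For the mast cell list it was 17.8 to 18.6 in activated and 18.1 to 18.5 in resting cells at 16 h. At 2 h it was 18.3 to 18.5 in activated and 18.1 to 18.5 in resting cells. For the macrophage list it was 12.7 to 13.3, 12.3 to 13.4, 11.8 to 12.6 and 11.9 to 12.8 in the same order. The lymphocyte list summed to 8.63 to 8.75, 8.60 to 8.67, 9.62 to 9.70 and 8.87 to 8.97 in that order, with the activated 2 h arrays above all others. The neutrophil and progenitor list summed to 8.60 to 9.20, 9.08 to 10.04, 9.26 to 10.48 and 9.01 to 10.29. The erythroid list lay between 8.22 and 8.36 on all arrays and the fibroblast list between 7.80 and 8.06. Beside the respiratory chain ratios of activated cells at 16 h, Csf1r (-0.55), Cd68 (-0.53), Adgre1 (-0.36) and Mpo (-0.60) were lower with anti-TIM-3 and Itgax (0.49) higher. Of the mast cell markers 7 were higher and 1 lower, with Fcer1a at 0.86, Hdc at 0.83 and Tpsb2 at -0.57. The part of these markers in the results, the 2 h antigen comparison included, was not tested. Between 54.8% and 67.7% of spots per array were well above background in Cy5 and 53.7% to 62.1% in Cy3, 0 spots were saturated, and the number of arrays limits the precision.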

How the data were processed

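The 16 arrays were Agilent Whole Mouse Genome 4x44K slides (45018 spots each, of which 1639 were controls), labelled with the Agilent Dual-Color protocol version 5.5 and read with Feature Extraction 9, per the submitters' processing notes (version 9.1.3.1 per the file headers). The deposited scanner files hold spot intensity per channel (spot mean and local background median), and processed intensity that was background-subtracted, detrended and dye-normalized (linear and lowess), per the file headers. The deposited log10 ratios, and the deposited value table equal to them (largest difference 0), are log10 of processed Cy5 over Cy3, with scale and direction thus known. Every column of these values has a median of 0, and 23.8% of its values are 0.

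Here the spot and background intensities were corrected with normexp (offset 50), and each array's log2 ratios were normalized by loess with control and outlier spots at weight 0. Channel levels were then scaled between arrays with Aquantile. In limma 3.58.1 (R 4.3.3), lmFit and eBayes were run over all 16 arrays with 1 coefficient per group, and p-values were adjusted by the Benjamini-Hochberg method over all genes tested, with calls at 0.05. Probes had to be well above background in either channel on 3 of the 4 arrays of a group, and the brightest kept probe stood for a gene. Outlier spots removed 6 of 1280 member values. The scripts were checked on simulated data. In each of the 14 comparisons, up to 10 members were named, those with the largest change among called genes of the same sign on all arrays or with groups that did not overlap. Complex II, Cycs, the isoform pairs and the highest and lowest ratio of each complex were named too. Genes shown for another reason, such as Ndufv1 and the core subunits, were chosen after their values were seen. Some results are not reported here. The naming rule and the gene lists were drawn up with earlier results of these data known. Alternatives were Agilent's processed signals, median centring, other filters and probe rules, a slide block, a replicate block and leaving arrays out. 2 of them, the dimmest kept probe and leaving out 3 arrays, were chosen after seeing the data. No share of all genes stands beside the counts with arrays left out.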

Additional observations from a re-analysis of the deposited data

Results flagged for a closer look

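Some differences between groups in the anti-TIM-3 ratio were tested and called (limma, adjusted p under 0.05, groups not overlapping). Between 16 h and 2 h in activated cells these were Atp5f1 (0.54), Ndufc1 (0.34), Atp5c1 (0.33), Atp5j2 (0.29), Uqcrq (0.29), Ndufb10 (0.26), Atp5j (0.24), Cox6a1 (0.24), Cox7a1 (-0.28) and Cox7a2l (-0.36). Between activated and resting cells at 16 h they were Ndufa13 (0.35), Cox7c (0.27), Ndufa4 (0.24), Cox5a (0.22), Cycs (0.21), Ndufc1 (0.21), Uqcrh (-0.17) and Cox7a1 (-0.32). At 2 h they were Ndufb4 (-0.17), Atp5c1 (-0.19), Sdhb (-0.19) and Atp5j (-0.25).

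Single arrays lay far from the other 3 of their group in 5 of the 145 sets of 4 values examined, and chance gives about 1 in 20. These were the ratio of Atp5o in activated 2 h replicate 3 (-0.083), the ratio of Sdhd in resting 16 h replicate 4 (-0.082), the median ratio of complex IV in activated 2 h replicate 1 (0.027), and the medians of complex III in resting 2 h replicate 1, at 13.8 in Cy3 and 13.96 in Cy5.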

How the results depend on the processing

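The numbers of respiratory chain genes called are totals of both directions, and the cause of each change was not tested. Shares of all genes under the same settings are not given in this section. A change of count common to all genes therefore cannot be told apart from one particular to the members. With median centring they were 80 in activated cells at 16 h, 79 in resting cells at 16 h, 78 in activated cells at 2 h and 75 in resting cells at 2 h. For differences of ratios it gave 56 between the times in activated cells, 31 between activated and resting cells at 16 h and 0 at 2 h. Agilent's processed signals gave 17 in resting cells at 2 h, 14 between the times in activated cells, and 4 and 1 between activated and resting cells at 16 h and 2 h. A fit of only the groups compared gave 15 in resting cells at 16 h, 4 in resting cells at 2 h, 4 and 0 between activated and resting cells at 16 h and 2 h, 15 between the times in resting IgG-treated cells and 10 for antigen at 16 h in anti-TIM-3-treated cells. No filter gave 4 between activated and resting cells at 16 h. Without resting 16 h replicates 1 and 3 and resting 2 h replicate 3 there were 11 in resting cells at 16 h, 2 and 2 between activated and resting cells at 16 h and 2 h, and 1 and 6 for antigen at 16 h in IgG-treated and anti-TIM-3-treated cells.

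Leaving out single arrays gave 35 to 44 in activated cells at 16 h, 14 to 25 in resting cells at 16 h, 16 to 21 in activated cells at 2 h and 14 to 27 in resting cells at 2 h. Between activated and resting cells it gave 1 to 16 at 16 h and 0 to 5 at 2 h, and between the times 10 to 21 in activated and 0 to 7 in resting cells. Antigen counts were 2 to 4 at 16 h and 13 to 17 at 2 h with IgG, and 8 to 20 and 22 to 31 with anti-TIM-3. Time counts with IgG were 29 to 37 in activated and 17 to 31 in resting cells.

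Median centring raised all ratios and turned these to values above 0. In activated cells at 16 h they were Atp5g2 (0.76), Sdhb (0.66), Sdhd (0.64), Sdhc (0.45) and Cox7a1 (0.13). In resting cells at 16 h they were Atp5g2 (0.59), Ndufa7 (0.47), Sdhd (0.46), Uqcrfs1 (0.43) and Cox6a2 (0.011). In activated cells at 2 h they were Atp5o (0.56), Atp5g2 (0.49), Cox7a2 (0.46), Ndufb4 (0.43), Uqcrb (0.35), Sdhc (0.33), Sdhd (0.33) and Sdhb (0.31). In resting cells at 2 h they were Uqcr (0.59), Atp5g2 (0.47), Sdhb (0.46), Sdhd (0.39), Sdhc (0.19) and Sdha (0.15). The difference of Uqcrh between activated and resting cells at 16 h became 0.027. The dimmest kept probe turned Atp5b in activated cells at 16 h (-0.064), activated cells at 2 h (-0.060) and resting cells at 2 h (-0.22), Atp5a1 in activated cells at 2 h (-0.043), Atp5f1 between the times in activated cells (-0.044) and Ndufa3 over time in activated IgG-treated cells (-0.45). The mean of probes also turned Ndufa3 (-0.059). Agilent's processed signals turned Cox8a in activated cells at 16 h (-0.0098) and Uqcrh in activated cells at 2 h (-0.026).

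Pairing of samples by replicate number was not seen across all numbers, though every value for number 2 was positive. Deviations of samples with the same number correlated at -0.45 to 0.26 for number 1, 0.23 to 0.47 for 2, -0.38 to 0.64 for 3 and -0.04 to 0.15 for 4. With the replicate block, 47 genes were called higher and 5 lower in activated cells at 16 h, and each comparison's count stayed within 1.5 times. The slide as a random block (correlation -0.03 for ratios) lost 5 named calls. Dye and antibody were never swapped, and 4 arrays a group limit the precision.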
